A study of Mus musculus with 34 samples.

Results

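The Serpina3 genes of the mouse are a cluster of related protease inhibitors of the antichymotrypsin type, and 7 of them, Serpina3c, Serpina3f, Serpina3g, Serpina3i, Serpina3k, Serpina3m and Serpina3n, are described here. They were chosen by gene symbol, and all 7 were found among the 55487 gene IDs of each deposited table. The livers came from male mice of 3 months of age, and all animals received an intraperitoneal injection. In the first table, 6 wild-type (WT) mice were given PBS, 6 WT mice were taken 2 hours after TNFa, an inflammatory cytokine, 5 PiZ mice were given PBS, and 5 mice labelled as PiZ with a knockout of p50 (PiZ p50KO) were given PBS. PiZ mice carry a transgene for the human Z variant of alpha-1 antitrypsin, a protein that polymerizes in the endoplasmic reticulum of hepatocytes. In the second table, 6 WT mice were given DMSO and 6 were taken 24 hours after tunicamycin, which stops cells from adding N-glycans to new proteins. The tables belong to different batches in the labels and were not compared with each other. The strain and the source of the p50 allele are not given in the sources used here, and nothing in the labels ties a library to a named animal, so that p-values measure the spread between these samples.

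Serpins are suicide inhibitors: a protease cuts the exposed reactive centre loop of the serpin, and the serpin then folds around the cut and traps the protease. The sequence of the loop decides which proteases are met, and it differs between close relatives. In the liver, antichymotrypsin-type serpins are secreted by hepatocytes, and some are acute-phase proteins whose genes respond to interleukin 6 through STAT3 and to glucocorticoids. Serpina3n is the best known acute-phase member and inhibits granzyme B and other serine proteases. Serpina3k is the kallikrein-binding protein, or contrapsin, of mouse plasma. Serpina3g, also known as Spi2A, acts inside cells on cysteine cathepsins and is a target of NF-kB in leukocytes.

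The members lie within 267.9 kb of chromosome 12 (GRCm38, chr12:104146382-104414329), Serpina3c on the minus strand and the other 6 on the plus strand, all annotated as protein-coding. Their coding sequences were alike, with the highest identity, 91.0%, between Serpina3k and Serpina3m. Serpina3g has a shorter annotated coding sequence, of 744 bases against 1224 to 1335 in the others, and its identity to the other members over all alignment columns, gaps included, was 39.0% to 48.7%. The stretch that codes for the reactive centre loop is shown because the loop decides which proteases are met. Whether other stretches differ more between the members was not tested. Each is read 5′ to 3′ on the coding strand from the GENCODE M21 transcripts, and capitals mark bases found in fewer than 3 of the other 6 members at the aligned position.
Serpina3c loop, chr12:104147307-104147387, minus strand: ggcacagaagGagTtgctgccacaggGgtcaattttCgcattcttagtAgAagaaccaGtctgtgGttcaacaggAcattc
Serpina3f loop, chr12:104220245-104220337, plus strand: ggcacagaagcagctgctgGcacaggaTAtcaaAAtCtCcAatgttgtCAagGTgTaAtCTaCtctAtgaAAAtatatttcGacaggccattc
Serpina3g loop, chr12:104241072-104241161, plus strand: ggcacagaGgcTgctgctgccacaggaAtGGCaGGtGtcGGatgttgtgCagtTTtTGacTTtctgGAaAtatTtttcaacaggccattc
Serpina3i loop, chr12:104268480-104268569, plus strand: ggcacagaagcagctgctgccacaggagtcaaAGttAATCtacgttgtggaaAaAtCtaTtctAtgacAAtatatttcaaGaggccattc
Serpina3k loop, chr12:104345269-104345352, plus strand: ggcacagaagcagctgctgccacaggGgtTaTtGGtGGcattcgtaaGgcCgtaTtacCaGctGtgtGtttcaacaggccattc
Serpina3m loop, chr12:104393769-104393858, plus strand: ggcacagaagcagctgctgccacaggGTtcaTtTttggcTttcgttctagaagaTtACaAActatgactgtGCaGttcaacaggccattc
Serpina3n loop, chr12:104413448-104413537, plus strand: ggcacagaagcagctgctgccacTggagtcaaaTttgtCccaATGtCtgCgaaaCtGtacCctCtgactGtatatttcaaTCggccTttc
With each window cut into 3 equal parts, the middle part held the most capitals in 6 members, 7 (Serpina3m) to 13 (Serpina3f), and each part held 3 in Serpina3c. Each window was found by a conserved protein motif at its start and another at its end. Fewer capitals in the outer parts were thus in part set by this choice. Identity between members over this window ran from 61.7%, between Serpina3c and Serpina3f, to 78.4%, between Serpina3f and Serpina3i. Serpina3k and Serpina3m, at 91.0% over the coding sequence, were 74.7% identical over the loop.

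Likeness also touches the counting. Of the distinct 50-base windows in each member's transcripts, 4.25% (Serpina3c) to 19.1% (Serpina3m) also occurred in another gene, and of 100-base windows 0% (Serpina3c) to 6.09% (Serpina3m). Serpina3m shared most with Serpina3k, and the annotation gives both the same first base, with 60 exonic bases in common. The read length and the handling of reads with several matches are not given in the sources used here, so the division of reads between close members, above all of Serpina3m from the more abundant Serpina3k and of Serpina3g, Serpina3h and Serpina3i from each other, is uncertain.

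Upstream sequences of 250 bases from RefSeq (GRCm38.p6) matched 5 of the 7 members, Serpina3c, Serpina3f, Serpina3g, Serpina3i and Serpina3n, and are shown because these genes moved differently between groups. Capitals mark matches, on either strand, to TTCNNNGAA, a STAT-type motif, and to a 10-base NF-kB-type (kB) motif, which is GGNNTTTCC with a further G before it.
Serpina3c upstream, chr12:104153873-104154122, minus strand: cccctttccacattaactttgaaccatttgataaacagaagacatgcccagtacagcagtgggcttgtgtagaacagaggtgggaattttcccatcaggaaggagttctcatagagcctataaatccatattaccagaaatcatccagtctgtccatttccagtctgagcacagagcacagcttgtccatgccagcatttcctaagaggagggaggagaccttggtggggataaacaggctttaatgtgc
Serpina3f upstream, chr12:104214294-104214543, plus strand: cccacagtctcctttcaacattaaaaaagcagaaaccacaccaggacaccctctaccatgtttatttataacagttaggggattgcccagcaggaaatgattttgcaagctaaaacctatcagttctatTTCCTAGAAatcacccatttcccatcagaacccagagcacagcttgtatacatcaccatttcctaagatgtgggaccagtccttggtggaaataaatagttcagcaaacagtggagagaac
Serpina3g upstream, chr12:104235897-104236146, plus strand: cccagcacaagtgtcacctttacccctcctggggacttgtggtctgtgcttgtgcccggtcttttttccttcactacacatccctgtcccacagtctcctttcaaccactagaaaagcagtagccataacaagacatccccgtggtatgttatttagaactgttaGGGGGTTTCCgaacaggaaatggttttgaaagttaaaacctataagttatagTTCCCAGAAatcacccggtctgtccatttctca
Serpina3i upstream, chr12:104262872-104263121, plus strand: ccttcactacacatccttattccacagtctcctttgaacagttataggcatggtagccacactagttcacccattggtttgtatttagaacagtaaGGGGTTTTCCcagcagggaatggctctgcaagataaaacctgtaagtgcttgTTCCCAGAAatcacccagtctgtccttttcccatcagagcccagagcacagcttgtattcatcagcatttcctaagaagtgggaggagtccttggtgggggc
Serpina3n upstream, chr12:104406458-104406707, plus strand: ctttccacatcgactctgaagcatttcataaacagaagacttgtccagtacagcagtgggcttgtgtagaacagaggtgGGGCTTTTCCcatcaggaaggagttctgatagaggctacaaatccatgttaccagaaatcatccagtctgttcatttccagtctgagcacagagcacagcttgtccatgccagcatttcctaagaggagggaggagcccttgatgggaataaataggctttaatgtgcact
The STAT-type letters occurred in Serpina3f, Serpina3g and Serpina3i, and in 7.02% of all 32851 promoters of the table. The 10-base kB letters occurred in Serpina3g, Serpina3i and Serpina3n, and in 1.41% of promoters, and the 9-base form GGNNTTTCC was found in the same 3 members and in 4.93%. A C/EBP-type motif, TTNNGNAA, was present in all 5 and in 36.8% of promoters, and in Serpina3g 1 of its matches overlapped the kB match. The letters TATAAA were found, on either strand, in Serpina3c and the Serpina3f entry shown and in 12.4% of promoters. An interferon response motif of 10 bases was found in none of the 5 and in 2.98% of promoters. A shortened form, GAAANNGAA, searched after the longer one gave no match, was found in Serpina3f, where it overlapped the STAT-type match, and in 7.13% of promoters. Serpina3f has a further RefSeq entry, chr12:104214383-104214632, which is not shown: it holds the same STAT-type match at 210 bases before its start, against 121 in the entry shown, and no TATAAA. A match is a description of letters, and a missing match says only that these letters are not in this window.

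Libraries held 35.5 to 54.0 M (mega) reads in the first table and 34.3 to 47.8 M in the second, except WT PBS 2, with 10.2 M. WT PBS 2 stood apart in other ways: protein-coding genes took 72.2% of its reads and 97.3% to 97.8% of those of its 21 table mates, 32360 genes were above 1 count per M reads (CPM) against 11683 to 13202, and albumin (Alb) was at 12.22 log2 CPM against 15.43 to 16.49. It is therefore given apart, and the tests below leave it out unless said otherwise. The libraries labelled PiZ p50KO PBS 1 and 2 did not show the low Nfkb1 level of the other 3: Nfkb1, which encodes p50, was at 4.51, 4.86, 3.31, 3.74 and 3.37 log2 CPM in libraries 1 to 5, against 4.62 to 5.58 in PiZ PBS and 3.92 to 4.34 in WT PBS. Nfkb1 differed by -1.20 ± 0.34 log2 units (SE) between the libraries labelled PiZ p50KO and PiZ PBS (limma, adjusted p = 0.0145). Which part of Nfkb1 the knockout allele lacks is not given in the sources used here, so its level checks the labels only in part.

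In WT PBS liver the members differed in level by more than 4 orders of magnitude on a per-length scale. Mean RPKM (reads per kb of merged exons per M reads) was 6668 ± 1086 for Serpina3k, 682.8 ± 97.0 for Serpina3m, 181.0 ± 19.2 for Serpina3n, 85.5 ± 15.8 for Serpina3c, 3.81 ± 1.26 for Serpina3f, 0.917 ± 0.269 for Serpina3i and 0.149 ± 0.042 for Serpina3g (SD, n = 5). The ranges of neighbours in this order did not overlap. Serpina3k alone held 88.7% ± 0.52 of the reads on the 7 members, which together took 1.55% ± 0.25 of each library. In WT PBS, Serpina3g rested on 10 to 21 reads and Serpina3i on 67 to 130 reads per library, so their levels there carry a large counting error. The same order held in the means of the WT TNFa, WT DMSO and WT tunicamycin groups. In PiZ PBS, Serpina3f, at 571.7 ± 114.1 RPKM, came second, above Serpina3m at 459.3 ± 52.3, though the ranges of these 2 genes overlapped.

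**Figure D1:**
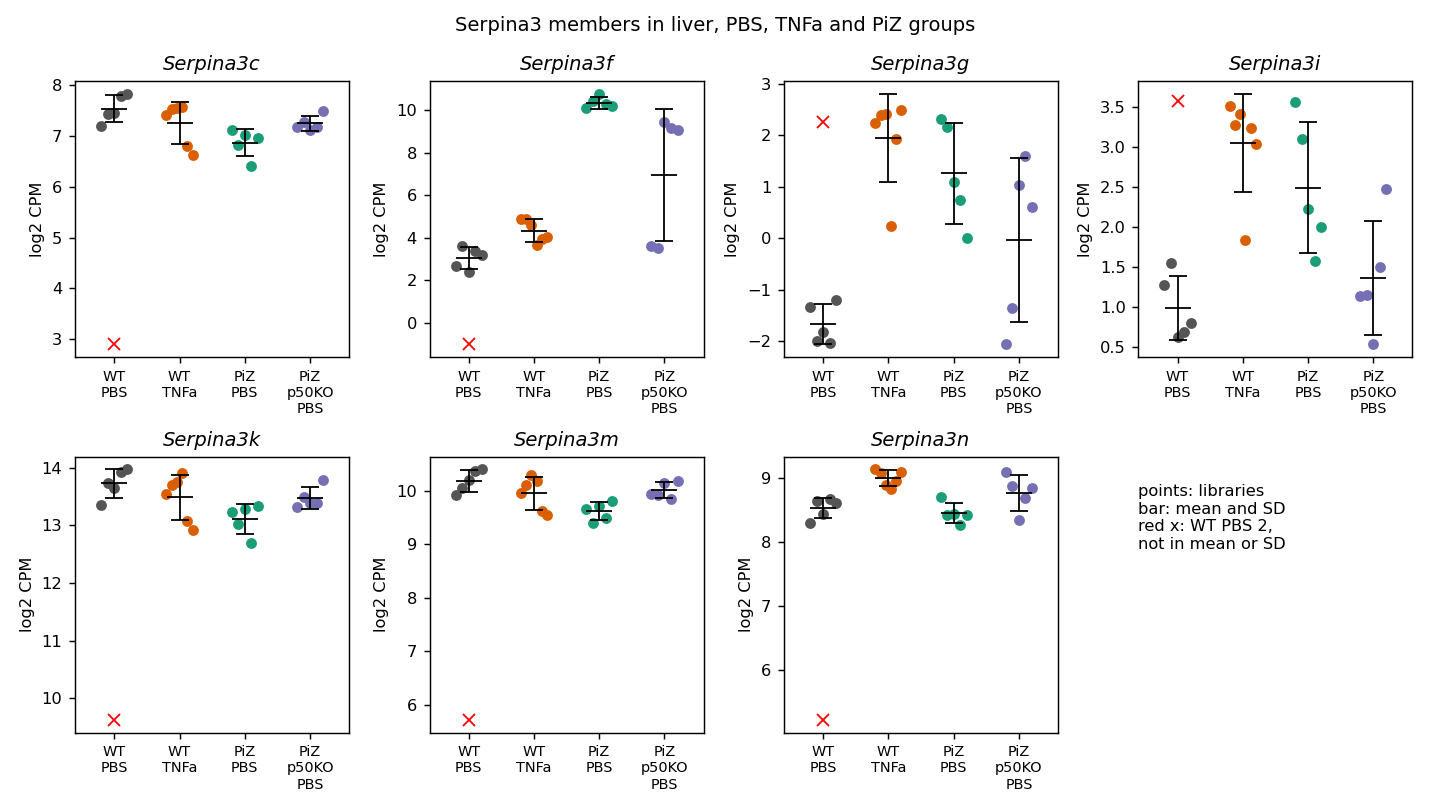
Level of each member (log2 CPM, y axis) in the libraries of the first table by group (x axis); points are libraries, bars the mean and SD, and red crosses WT PBS 2, which is in neither. Serpina3f is at 10.07 to 10.76 in PiZ PBS and at 2.40 to 3.62 in WT PBS, and in PiZ p50KO PBS it lies at 3.61 and 3.52 in libraries 1 and 2 and between 9.05 and 9.44 in libraries 3 to 5.

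The first comparison asks what differs between PiZ and WT liver. Serpina3f was far higher in PiZ, Serpina3g and Serpina3i were also higher, and Serpina3c, Serpina3k and Serpina3m were lower. A call here is an adjusted p below 0.05 in limma over all genes tested. In PiZ PBS minus WT PBS, 3 of the 7 members were called higher and 3 lower. The background was 45.6% of genes called higher and 6.19% lower, with a median over all genes of 0.40 log2 units, so 3 higher members of 7 is near the background. The median over the members was -0.08.

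Serpina3f was at 10.07, 10.40, 10.76, 10.28 and 10.16 log2 CPM in PiZ PBS 1 to 5. It was at 2.67, 3.62, 2.40, 3.38 and 3.21 in WT PBS 1, 3, 4, 5 and 6, and at -0.999 in WT PBS 2. Every PiZ library lay above every WT library, and the difference was 7.28 ± 0.88 log2 units (SE, adjusted p = 1.48e-06), or 155-fold. Its share of the reads on the members was 11.5% ± 2.4 in PiZ PBS and 0.056% ± 0.016 in WT PBS. With WT PBS 2 the difference was 7.95 ± 0.96 (adjusted p = 9.35e-06).

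Serpina3g was at 2.33, 2.16, 1.09, 0.74 and 0.0056 log2 CPM in PiZ PBS 1 to 5. In WT PBS 1, 3, 4, 5 and 6 it was at -1.32, -1.99, -1.81, -2.02 and -1.19, and in WT PBS 2 at 2.27, near the top of the PiZ range. Apart from WT PBS 2 the groups did not overlap, but PiZ libraries differed widely among themselves. The difference was 2.93 ± 0.60 (adjusted p = 0.000412), and 2.28 ± 0.76 with WT PBS 2 (adjusted p = 0.0405). Serpina3i was at 3.56, 3.10, 2.23, 1.57 and 2.00 in PiZ PBS 1 to 5 and at 1.27, 1.55, 0.63, 0.69 and 0.81 in WT PBS 1, 3, 4, 5 and 6, with 3.57 in WT PBS 2. It differed by 1.502 ± 0.38 (adjusted p = 0.00259). This call was lost with WT PBS 2 (1.07 ± 0.49, adjusted p = 0.146) and under quantile normalization (0.83, adjusted p = 0.0711), where Serpina3k also lost its call (-0.41, adjusted p = 0.112).

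Serpina3c, Serpina3k and Serpina3m went the other way. Serpina3k was at 13.23, 13.02, 13.28, 12.69 and 13.33 log2 CPM in PiZ PBS 1 to 5 and at 13.36, 13.73, 13.65, 13.92 and 13.97 in WT PBS 1, 3, 4, 5 and 6. The highest PiZ library lay just below the lowest WT library, and the difference was -0.62 ± 0.18 (adjusted p = 0.00721). Serpina3c differed by -0.67 ± 0.18 (adjusted p = 0.00431) and Serpina3m by -0.57 ± 0.14 (adjusted p = 0.00212), both without overlap of the groups. In WT PBS 2 these 3 genes were at 9.62 (Serpina3k), 2.90 (Serpina3c) and 5.72 (Serpina3m), far below all other libraries of the table. With WT PBS 2 in the fit, the differences of Serpina3c, Serpina3k and Serpina3m were 0.10, 0.07 and 0.18 and none was called (adjusted p = 0.946, 0.974 and 0.895). In that fit 17.3% of genes were called in either direction and 2 members, Serpina3f and Serpina3g. Serpina3n was at 8.27 to 8.71 in PiZ PBS and at 8.31 to 8.68 in WT PBS, with overlapping groups and a difference of -0.08 ± 0.12 (adjusted p = 0.579). It became -0.57 and was called (adjusted p = 0.000689) when libraries were shifted to the same median, a scaling that also turned the calls over all genes from 6064 higher and 822 lower to 2315 higher and 2990 lower.

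Markers of several other cell types moved with this comparison. Summed levels were 205 to 344 CPM in PiZ PBS against 89.3 to 108.0 in WT PBS for Kupffer cells and macrophages (5 of 6 markers called higher), 388 to 500 against 90.4 to 101.3 for stellate cells (5 of 5), and 82.4 to 124.5 against 23.3 to 26.9 for cholangiocytes (4 of 5). Endothelial markers were at 223 to 281 against 158 to 201 (4 of 5 higher). Of 5 neutrophil markers 3 were tested and 0 called by limma (1 higher at an unadjusted p below 0.05). Their sums overlapped, at 5.41 to 27.5 CPM against 1.41 to 17.8. None of the 6 T and NK cell and 4 B cell markers passed the filter on low values. Of 6 hepatocyte markers 4 were called lower, at a sum of 61130 to 89740 CPM against 85990 to 112200. In bulk liver, fewer cells of a type and less RNA per cell cannot be told apart, and the part of these cells in the members' differences was not tested.

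Of the other genes of the cluster, 6 of 7 were tested, and 1 was called higher and 1 lower. Serpina3h, annotated as a transcribed pseudogene between Serpina3g and Serpina3i, differed by 0.99 ± 0.29 (adjusted p = 0.00803), and Serpina3a by -0.76 ± 0.17 (adjusted p = 0.00112). Among the genes tested, those called higher thus lie next to each other, from Serpina3f to Serpina3i. The division of reads between Serpina3g, Serpina3h and Serpina3i is uncertain, as said above. The pseudogene Serpina3d-ps, outside this stretch, did not pass the filter on low values and was not tested. It was at -1.92 to -0.67 log2 CPM in PiZ PBS and at -5.09 to -3.59 in WT PBS, without overlap. Among other clade A serpins 3 of 13 were called higher and 5 lower, including Serpina9 (3.52), Serpina7, the thyroxine-binding globulin (3.08), and Serpina12, also known as vaspin (-1.84). Among serpins of other clades 7 of 13 were called higher and 2 lower, with Serpinb6a at 3.13, Serpinb6b at 1.97 and Serpine2 at 1.91.

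Gene lists for the signals known to act on this family were also counted, beside the same background. All 5 NF-kB subunits were called higher, including Relb (3.19), Nfkb2 (2.06) and Rel (1.12). Of 14 interleukin 6, STAT3 and glucocorticoid genes, 8 were called higher and 1 lower, with Il1b at 2.54, Osmr, the oncostatin M receptor, at 1.86, and Lifr at -1.25. Of 21 other acute-phase proteins, 11 were called higher and 3 lower, led by Lcn2, or lipocalin 2 (6.91), Saa2 (3.14) and Saa3 (2.18). Of 4 tested proteases that such serpins are known to meet, Ctss (3.10) and Ctsb (0.70) were called higher and Klkb1 (-0.49) lower.

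**Figure D2:**
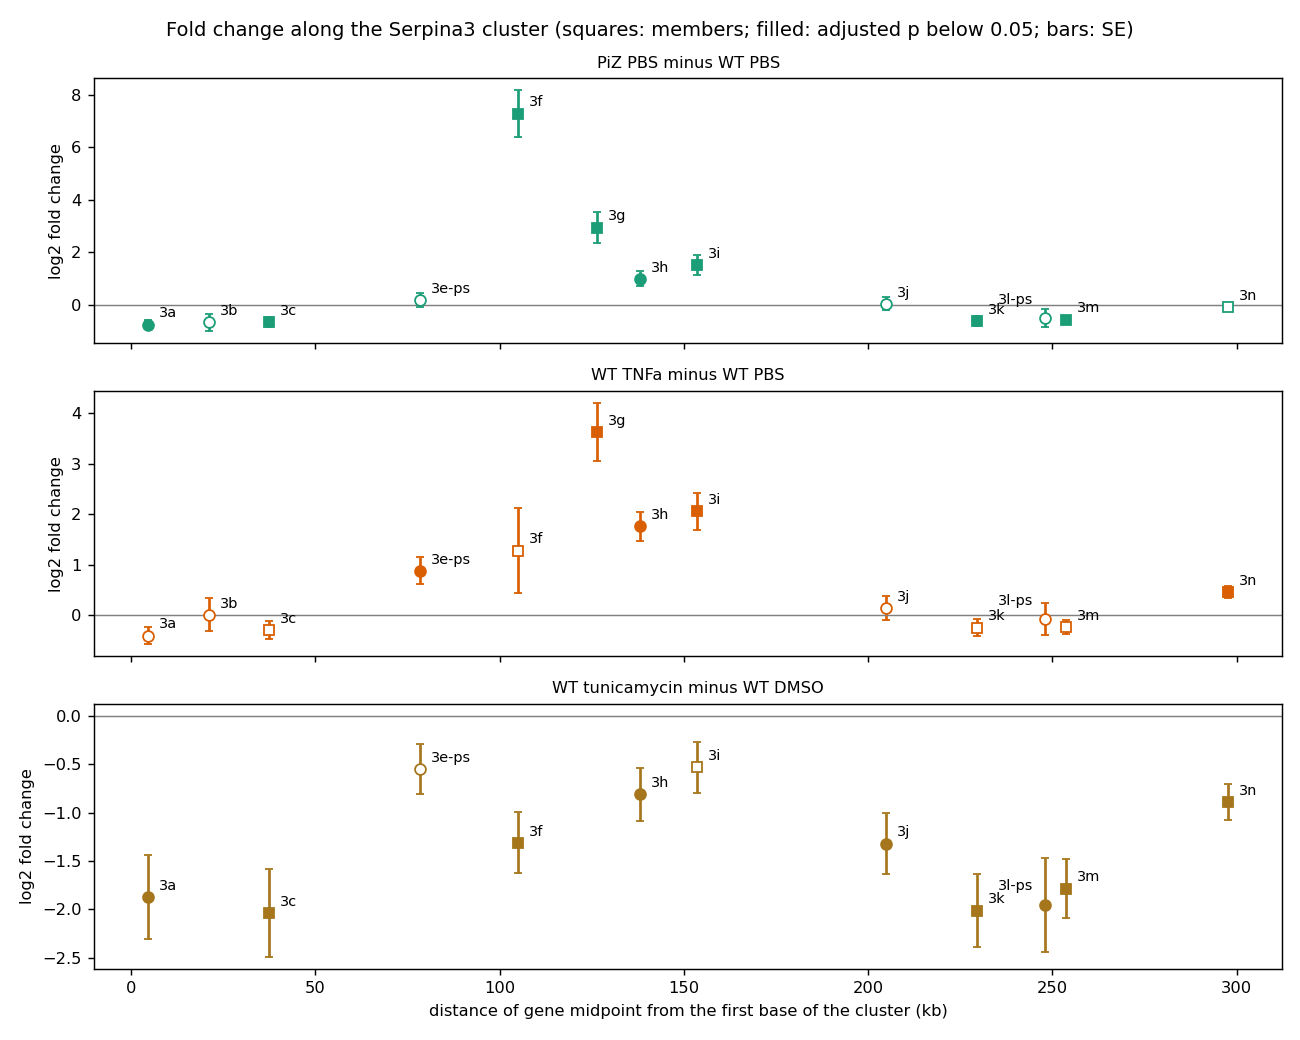
Log2 fold change with SE (y axis) against the distance of each gene's midpoint from the first base of the cluster in kb (x axis), for 3 comparisons; squares are members, circles other genes of the cluster, and filled symbols have an adjusted p below 0.05. In PiZ PBS minus WT PBS the filled symbols above 0 are the neighbours Serpina3f (7.28), Serpina3g (2.93), Serpina3h (0.99) and Serpina3i (1.502). Genes of the cluster that were not tested, such as Serpina3d-ps, are not shown.

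The second comparison asks what TNFa does in WT liver within 2 hours. Serpina3g, Serpina3i and Serpina3n rose, and no member was called lower. In WT TNFa minus WT PBS, 7.63% of genes were called higher and 4.05% lower, with a median over all genes of -0.02. The median over the members was 0.46. When libraries were shifted to the same median the calls over all genes went from 1013 higher and 538 lower to 986 higher and 821 lower.

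Serpina3g was at 2.23, 2.41, 2.41, 0.25, 1.94 and 2.49 log2 CPM in WT TNFa, lowest 0.25, median 2.32 and highest 2.49, and at -2.02 to -1.19 in WT PBS without WT PBS 2. The groups did not overlap, and Serpina3g rose by 3.62 ± 0.58 (adjusted p = 0.000206), or 12.3-fold. Serpina3i was at 3.51, 3.27, 3.41, 1.84, 3.24 and 3.04 against 0.63 to 1.55. It rose by 2.06 ± 0.37 (adjusted p = 0.000574). Library WT TNFa 4 was the lowest of its group for both genes. It also had the lowest Nfkb1 of the group, 4.77 against 6.57 to 6.95, and the lowest sum of neutrophil markers, 6.77 CPM against 49.5 to 102.6. Without it the rises were 3.96 (adjusted p = 1.99e-05) and 2.30 (adjusted p = 3.88e-05).

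Serpina3n was at 9.14, 9.08, 8.90, 8.84, 8.95 and 9.10 in WT TNFa and at 8.31 to 8.68 in WT PBS, with 5.21 in WT PBS 2. Without WT PBS 2 the groups did not overlap, and it rose by 0.46 ± 0.12 (adjusted p = 0.0101), or 1.38-fold. With WT PBS 2 the difference was 1.02 ± 0.40 and was not called (adjusted p = 0.181), while Serpina3g (2.97, adjusted p = 0.0195) and Serpina3i (1.63, adjusted p = 0.0494) were, at 4.06% of genes called in either direction. Serpina3f was at 4.89, 4.90, 4.58, 3.67, 3.96 and 4.02, all above the highest WT PBS library at 3.62. Its difference of 1.28 ± 0.84 was not called (adjusted p = 0.426), in a fit whose shared spread includes the PiZ p50KO libraries (SD 3.09). With the spread of only these groups the adjusted p was 0.0086. Serpina3c, Serpina3k and Serpina3m differed by -0.29 ± 0.17, -0.24 ± 0.17 and -0.23 ± 0.13 (adjusted p = 0.369, 0.480 and 0.336), with overlapping groups.

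Of the other cluster genes tested, 2 of 6 were called higher, Serpina3h (1.76 ± 0.28, adjusted p = 0.000206) and the pseudogene Serpina3e-ps (0.88 ± 0.27, adjusted p = 0.0339). All 5 NF-kB subunits were called higher, with Relb at 4.99, Nfkb2 at 3.57 and Nfkb1 at 2.24. Of 14 interleukin 6, STAT3 and glucocorticoid genes 9 were called higher, among them Il1b (3.09), Socs3 (2.67), the feedback inhibitor of STAT3, and Cebpd (2.20), and 8 of 21 other acute-phase proteins, led by Lcn2 (5.09), Saa3 (4.18) and Saa2 (3.94). Other clade A serpins gave 0 calls higher and 1 lower of 13, Serpina5 (-1.13), and serpins of other clades 1 higher of 13, Serpinh1 (1.06). None of the 4 tested proteases was called by limma (1 lower at an unadjusted p below 0.05), Ctss having the greatest difference (0.37, adjusted p = 0.398). The 3 neutrophil markers tested were all called higher, at a sum of 6.77 to 102.6 CPM for the whole list against 1.41 to 17.84. Of 6 Kupffer cell markers 1 was called higher, at a sum of 117.8 to 156.7 CPM against 89.3 to 108. Of 5 cholangiocyte markers 2 were called higher, at 27.8 to 49.5 CPM against 23.3 to 26.9. Of 5 stellate cell markers 1 was called lower, and of 5 endothelial markers 1 was called higher and 1 lower. The part of these cells in the members' rise was not tested. None of the 6 hepatocyte markers was called by limma, nor was any below 0.05 unadjusted.

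PiZ and TNFa were also set against each other, since the comparisons above share their control libraries. In PiZ PBS minus WT TNFa, Serpina3f was 6.00 ± 0.84 higher in PiZ (adjusted p = 6.64e-06). Serpina3n (-0.55 ± 0.12, adjusted p = 0.000503) and Serpina3m (-0.33 ± 0.13, adjusted p = 0.0399) were lower in PiZ. Serpina3g (-0.69 ± 0.58, adjusted p = 0.321) and Serpina3i (-0.56 ± 0.37, adjusted p = 0.199) were not called, with overlapping groups. The background was 47.7% higher and 8.11% lower, with a median of 0.39, and 25.3% in either direction with WT PBS 2 in the fit, when Serpina3f alone was called. Calls over all genes went from 6339 higher and 1077 lower to 2744 higher and 3035 lower with libraries shifted to the same median, and 6 members were then called. In the lists, all 5 NF-kB subunits were lower in PiZ than after TNFa, and other acute-phase proteins gave 5 higher and 9 lower of 21, with Crp at -2.46. Of the cell type markers tested, 5 of 6 for Kupffer cells, 5 of 5 for stellate cells, 4 of 5 for endothelial cells and 2 of 5 for cholangiocytes were higher in PiZ, and 4 of 6 for hepatocytes were lower; their part in the members' differences was not tested. The call of Serpina3m was lost in 13 alternatives, among them leaving out single libraries.

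**Figure D3:**
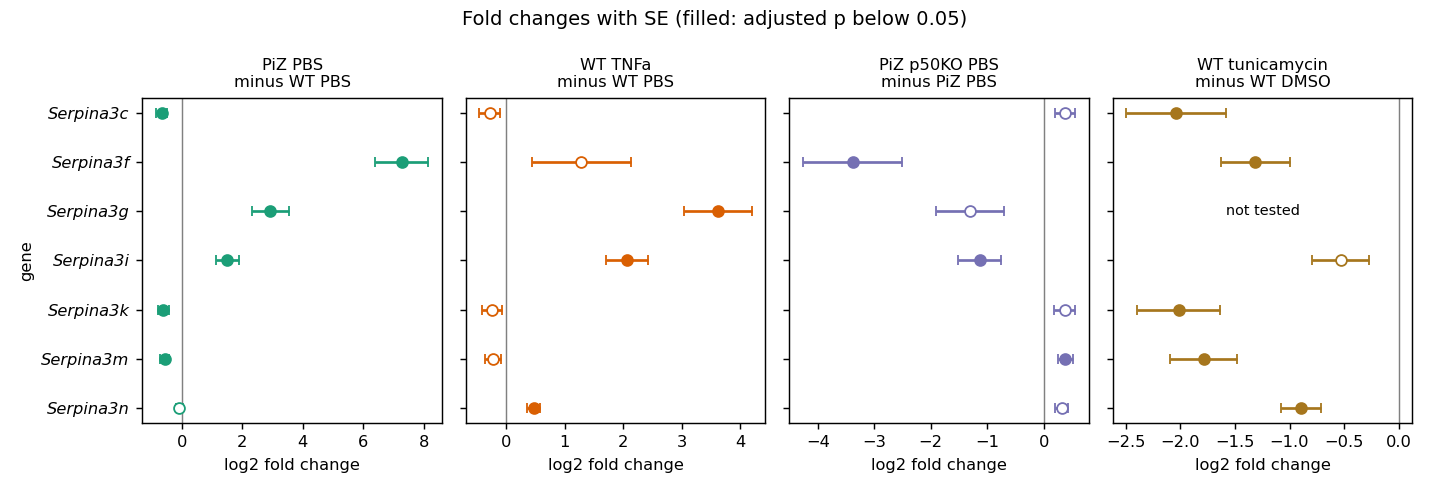
Log2 fold change with SE (x axis) of each member (y axis) in 4 comparisons, without WT PBS 2; filled symbols have an adjusted p below 0.05, and Serpina3g was not tested in the last. The axes differ in range: the greatest change in PiZ is 7.28, of Serpina3f, and the greatest change after tunicamycin is -2.04, of Serpina3c.

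The third comparison asks what the loss of p50 does in PiZ liver. Serpina3f and Serpina3i were lower and Serpina3m higher in the libraries labelled PiZ p50KO than in PiZ PBS, and the Serpina3f values fell into separate ranges within the labelled group. In PiZ p50KO PBS minus PiZ PBS, 1 of the 7 members was called higher and 2 lower, at a background of 3.36% higher and 21.6% lower and a median of -0.22. The median over the members was 0.32. With libraries shifted to the same median, calls over all genes went from 447 higher and 2866 lower to 1307 higher and 1210 lower, and 5 members were called.

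Serpina3f was at 3.61, 3.52, 9.44, 9.13 and 9.05 log2 CPM in the libraries labelled PiZ p50KO PBS 1 to 5, and at 10.07 to 10.76 in PiZ PBS. Libraries 1 and 2 lay within the WT PBS range, and libraries 3 to 5 lay below every PiZ library. The difference was -3.38 ± 0.88 (adjusted p = 0.00821). It was not called with WT PBS 2 in the fit (adjusted p = 0.0667), when 3.47% of genes and 0 members were called by limma (2 members at an unadjusted p below 0.05), nor with the spread of only these groups (adjusted p = 0.0615). Without libraries 1 and 2 it was -1.13 ± 0.29 (adjusted p = 0.0152), with 11.2% of genes called, and Serpina3f was the only member called.

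Serpina3g followed a like division: it was at -2.06 and -1.36 in libraries 1 and 2, within or just below the WT PBS range, and at 1.05, 1.61 and 0.60 in libraries 3 to 5, within the PiZ range. Its difference of -1.30 ± 0.60 was not called (adjusted p = 0.121) and was -0.18 ± 0.51 without libraries 1 and 2. Libraries 1 and 2 are also those whose Nfkb1 is higher than in libraries 3 to 5. Their sums of stellate cell markers (133 and 134 CPM) and cholangiocyte markers (28.4 and 33.2 CPM) were below those of libraries 3 to 5 (172 to 260 and 57.4 to 73.7 CPM). These sums were above the WT PBS ranges without WT PBS 2 (90.4 to 101.3 and 23.3 to 26.9 CPM). Neutrophil and T and NK cell sums, all low, were also below those of libraries 3 to 5. Kupffer cell sums did not set libraries 1 and 2 apart (145.1 and 150.8 against 104.5 to 185.2 CPM). Neither did endothelial sums (179 and 268.6 against 199.1 to 213.3 CPM), nor those of hepatocyte and B cell markers. Whether the genotypes of these libraries are as labelled was not tested.

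Serpina3i was at 1.14, 1.16, 0.53, 1.51 and 2.47 in the libraries labelled PiZ p50KO and at 1.57 to 3.56 in PiZ PBS, with overlapping groups. Its difference of -1.13 ± 0.38 (adjusted p = 0.0350) was not called in 13 alternatives, and was -0.99 without libraries 1 and 2 (adjusted p = 0.178). Serpina3m was at 9.94, 9.93, 10.14, 9.84 and 10.19 against 9.41 to 9.81, without overlap. Its difference of 0.39 ± 0.14 (adjusted p = 0.0478) was not called in 14 alternatives, and was 0.44 without libraries 1 and 2 (adjusted p = 0.0980). Serpina3c (0.38 ± 0.18, adjusted p = 0.132), Serpina3k (0.37 ± 0.18, adjusted p = 0.140) and Serpina3n (0.32 ± 0.12, adjusted p = 0.0599) were not called.

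None of the 6 other cluster genes tested was called by limma (2 higher and 1 lower at an unadjusted p below 0.05), Serpina3b having the greatest difference (0.80 ± 0.34, adjusted p = 0.0894). Of the NF-kB subunits 3 of 5 were called lower: Relb (-1.98), Nfkb2 (-1.52) and Nfkb1. Of the interleukin 6 list 4 of 14 were called lower, with Il1b at -1.63, Osmr at -1.15 and Jak2 at -0.56. Of 21 other acute-phase proteins 4 were called higher and 3 lower, with Lcn2 at -3.53, Hamp at -1.24 and Saa4 at 1.15. Other clade A serpins gave 5 higher and 2 lower of 13, with Serpina1e at 3.52, Serpina9 at -2.12 and Serpina7 at -1.58, serpins of other clades 5 lower of 13, led by Serpinb6a (-2.43), Serpinb6b (-1.43) and Serpine2 (-1.40), and proteases 2 lower of 4, Ctss (-1.84) and Ctsb (-0.58). All 6 Kupffer cell markers were called lower, at a sum of 104.5 to 185.2 CPM against 205 to 344. So were 4 of 5 stellate cell, 3 of 5 cholangiocyte and 1 of 5 endothelial markers, and 3 of 6 hepatocyte markers were called higher. The list and marker counts here include libraries 1 and 2. The part of these cells in the members' differences was not tested.

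Against WT PBS, 1 of 7 members was called in the libraries labelled PiZ p50KO, Serpina3f, by 3.89 ± 0.88 (adjusted p = 0.0104). The background was 10.5% higher and 1.14% lower, with a median of 0.19. Calls over all genes went from 1398 higher and 152 lower to 425 higher and 575 lower with libraries shifted to the same median. Without libraries 1 and 2 Serpina3f differed by 6.15 ± 0.29 (adjusted p = 6.18e-11) and Serpina3g by 2.75 ± 0.51 (adjusted p = 0.000874), at 18.4% of genes called. Of 21 other acute-phase proteins 9 were called higher, led by Saa2 (3.68), and of 5 NF-kB subunits 0 by limma (1 at an unadjusted p below 0.05; the greatest difference was Relb, 1.21, adjusted p = 0.168). Of 6 Kupffer cell markers 3 were called higher and 1 lower. Called higher were also 3 of 5 stellate cell, 1 of 5 endothelial and 1 of 5 cholangiocyte markers. Of 6 hepatocyte markers 0 were called by limma (2 lower at an unadjusted p below 0.05). The part of these cells in the members' differences was not tested. With WT PBS 2 in the fit 0.0891% of genes and 0 members were called by limma (1 member at an unadjusted p below 0.05). The difference of Serpina3f was then 4.57 ± 0.96 (adjusted p = 0.0586). Its call was also lost with the spread of only these groups (3.89 ± 1.14, adjusted p = 0.0885), when 225 genes were called.

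**Figure D4:**
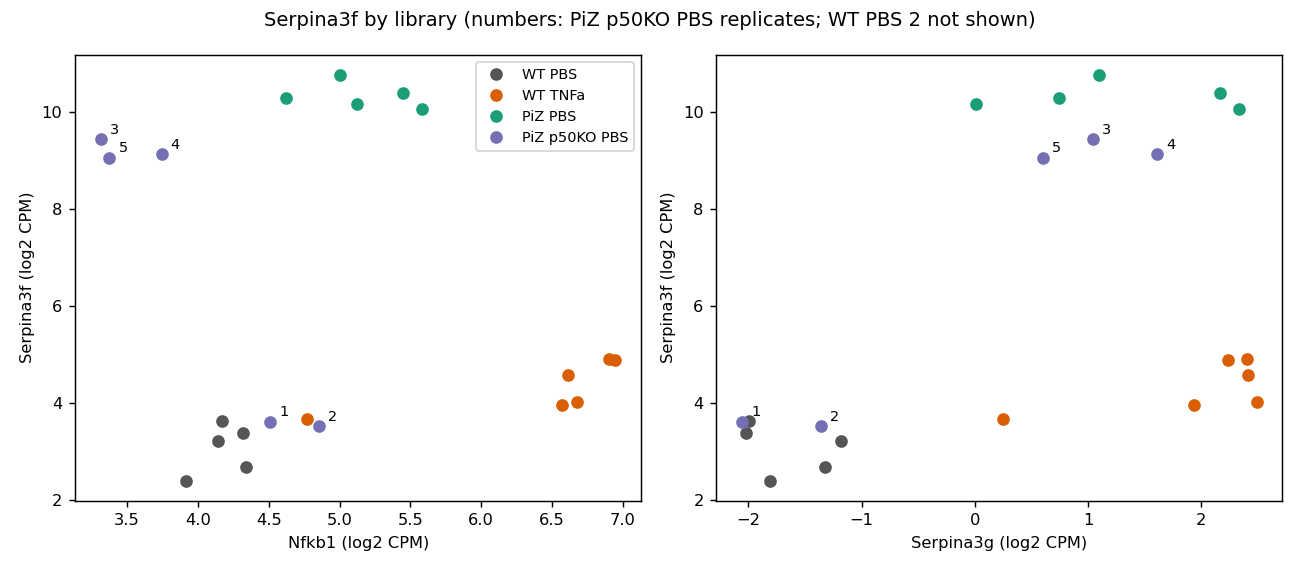
Serpina3f against Nfkb1 (left) and against Serpina3g (right) in the first table, all in log2 CPM, 1 point per library, with numbers for the libraries labelled PiZ p50KO PBS; WT PBS 2 is not shown. Libraries 1 and 2 have Serpina3f as in WT PBS (3.61 and 3.52), and libraries 3 to 5 have the lowest Nfkb1 (3.31 to 3.74) beside Serpina3f at 9.05 to 9.44.

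The fourth comparison asks what tunicamycin does in WT liver within 24 hours. Serpina3c, Serpina3k and Serpina3m fell most, Serpina3f and Serpina3n also fell, and none of the 6 members tested was called higher. In WT tunicamycin minus WT DMSO, 5 of 6 members tested were called lower and 0 higher, at a background of 45.3% higher and 13.5% lower and a median over all genes of 0.38. The median over the members was -1.55. With libraries shifted to the same median, calls over all genes went from 6067 higher and 1802 lower to 3233 higher and 3913 lower, and Serpina3i was called too.

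Serpina3k had its lowest, median and highest values at 9.45, 10.83 and 12.40 log2 CPM after tunicamycin and at 12.39, 12.90 and 13.29 after DMSO. The groups met at 1 tunicamycin library, at 12.40, and Serpina3k fell by 2.02 ± 0.38 (adjusted p = 0.000583). Serpina3c had values from 2.78 to 6.51 against 6.25 to 7.30, and fell by 2.04 ± 0.45 (adjusted p = 0.00194). Serpina3m, at 6.54 to 9.08 against 9.43 to 9.89 without overlap, fell by 1.79 ± 0.31 (adjusted p = 0.000314). The same library held the highest of the group for Serpina3c, Serpina3f, Serpina3i, Serpina3k and Serpina3m. It is 1 of 3 tunicamycin libraries whose column name is in the description of 1 sample and the library name of another. Only the group is known for these, and this library is called unnumbered a here. It also had the highest sum of hepatocyte markers of its group, 64300 CPM against 22240 to 51590.

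Serpina3n was at 7.17 to 7.98 against 8.11 to 9.02, without overlap, and fell by 0.89 ± 0.18 (adjusted p = 0.00109). Its share of the members' reads was 9.33% ± 3.97 after tunicamycin and 4.36% ± 1.45 after DMSO, while the 7 members together went from 0.896% ± 0.198 of a library to 0.273% ± 0.183. Serpina3f was at 2.24, 2.03, 2.06, 3.24, 2.34 and 2.27 after tunicamycin, libraries 1, 5, 6 and unnumbered a, b and c, and at 4.22, 2.29, 4.11, 3.45, 3.95 and 4.04 after DMSO. It fell by 1.31 ± 0.32 (adjusted p = 0.00307), and WT DMSO 2 lay within the tunicamycin range. Serpina3i was at 0.59 to 1.32 against 0.40 to 2.06, a difference of -0.53 ± 0.26 (adjusted p = 0.0964). Without WT DMSO 2, its lowest library, the difference was -0.76 and was called (adjusted p = 0.0032).

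Serpina3g did not pass the filter on low values in this table. It had 7 to 26 reads per library after tunicamycin and 3 to 12 after DMSO, except 100 reads in WT DMSO 5. The means were -1.46 and -1.61 log2 CPM, and an exact permutation test of their difference, two-sided, gave p = 0.857, where the smallest possible is 0.00216. WT DMSO 5 also had the highest sum of Kupffer cell markers (410.7 CPM against 124.4 to 209.2 in the other DMSO libraries) and the highest Serpina3n (9.02). It was also the highest DMSO library for neutrophil markers (8.45 CPM against 0.93 to 1.32) and cholangiocyte markers (70.0 against 28.4 to 48.8). The same held for T and NK cell, B cell, stellate cell and hepatocyte sums, but not for endothelial sums. The part of these cells in its Serpina3g reads was not tested.

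Of the other cluster genes 4 of 5 tested were called lower, Serpina3l-ps (-1.96), Serpina3a (-1.87) and Serpina3j (-1.32) the most. Other clade A serpins gave 1 higher and 8 lower of 13, with Serpina5 at -5.61, Serpina9 at -3.55 and Serpina12 at -2.75, and serpins of other clades 1 higher and 6 lower of 12, with Serpinb8 at -2.81, Serpinb1a at -2.49 and Serpinb9 at -1.48. Of 21 other acute-phase proteins 2 were called higher and 11 lower, among them Saa4 (-2.85), Orm2 (-2.59) and Apcs, or serum amyloid P (2.55). The interleukin 6 list gave 4 higher and 2 lower of 14, with Lifr at -1.58, Tyk2 at 1.04 and Cebpd at 0.95. NF-kB subunits gave 3 higher of 5, Relb (1.30), Nfkb2 (1.26) and Rela (0.99). Proteases gave 1 higher, Ctsl (2.35), and 2 lower, Klkb1 (-1.30) and Ctsb (-0.76), of 4. Hepatocyte markers were at a sum of 22240 to 64300 CPM against 84370 to 110100, with 4 of 6 called lower, among them Apoa1 (-2.47), Ttr (-1.89) and Cyp2e1 (-1.64), and 4 of 6 Kupffer cell markers were called lower (99.4 to 148.6 CPM against 124.4 to 410.7). Their part in the members' fall was not tested.

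**Figure D5:**
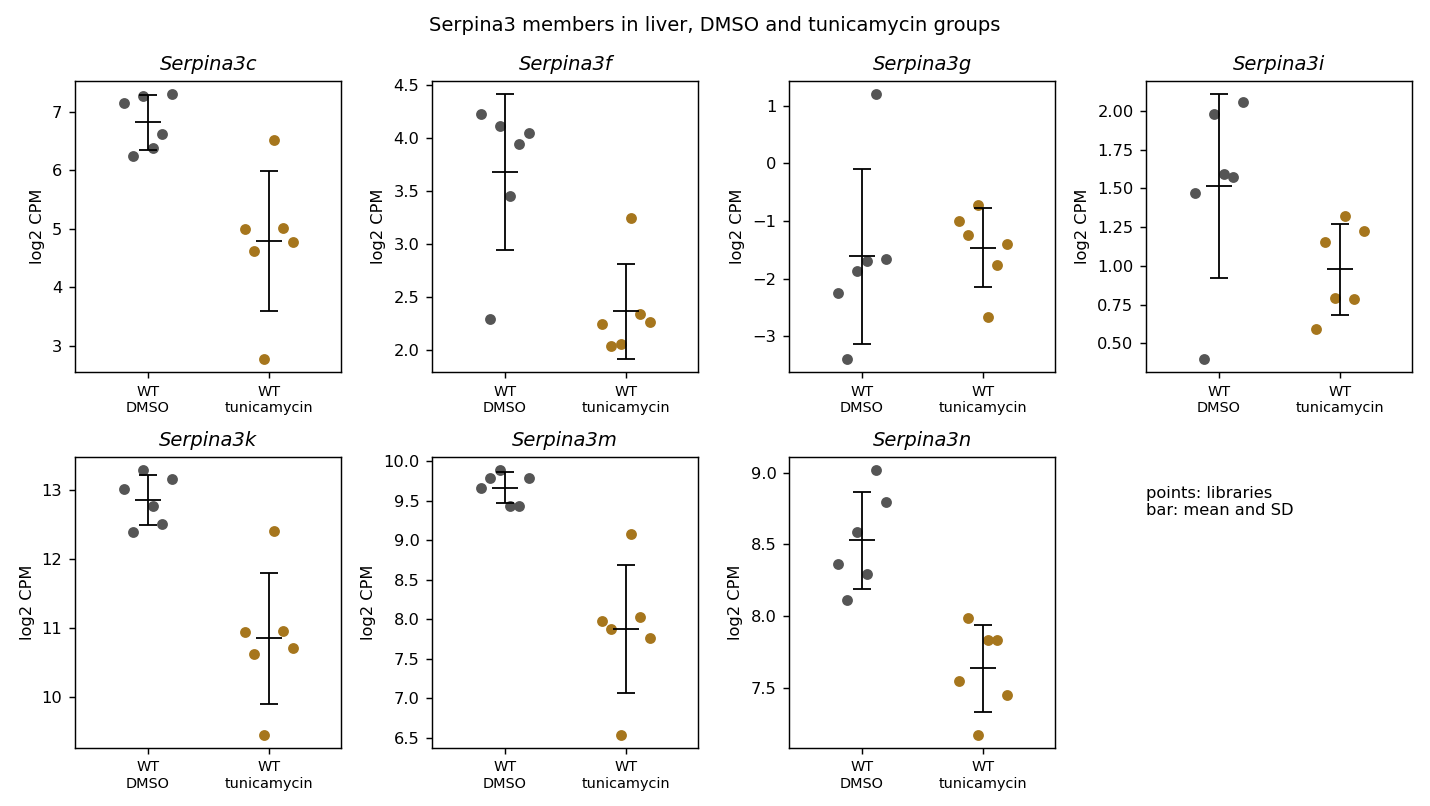
Level of each member (log2 CPM, y axis) in the libraries of the second table by group (x axis); points are libraries and bars the mean and SD. Serpina3m and Serpina3n do not overlap between the groups (6.54 to 9.08 against 9.43 to 9.89, and 7.17 to 7.98 against 8.11 to 9.02).

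How the members varied together over libraries is given as a description, with groups, depth and library shared between points, and it differed between the tables. Over the 21 libraries of the first table, Pearson's r of log2 CPM was 0.98 between Serpina3c and Serpina3k, 0.93 between Serpina3k and Serpina3m and 0.92 between Serpina3c and Serpina3m. It was 0.82 between Serpina3g and Serpina3i and 0.48 between Serpina3f and Serpina3g. In the 12 libraries of the second table Serpina3k had r of 0.99 with Serpina3c, 0.98 with Serpina3m and 0.84 with Serpina3n, against 0.22 with Serpina3n in the first. Serpina3f had r of 0.87 with Serpina3k and 0.86 with Serpina3c there, against -0.47 and -0.50 in the first table. The r between Serpina3g and Serpina3i was 0.18 in the second table, and that between Serpina3f and Serpina3g 0.071. Among 9793 other genes, those most like Serpina3k in the first table were Scp2 (0.92), Apoa1 (0.89) and Hao1 (0.89), and for Serpina3c Scp2 (0.90), Hao1 (0.88) and Apoa1 (0.88), all genes of hepatocyte metabolism. Serpina3m was most like Serpina3a (0.92), Apoa1 (0.91) and C8b (0.87). Serpina3f was most like H2-Eb1 (0.98), a class II histocompatibility gene, Mlkl (0.98), the effector of necroptosis, and Usp18 (0.98), an interferon-induced gene. Serpina3g was most like Gem (0.95), Plek (0.95) and Acod1 (0.94), and Serpina3i like Ralgds (0.96), Serpina3h (0.96) and Relb (0.95). Of 50-base windows, 9.82% of those of Serpina3i also occur in Serpina3h, and 16% of those of Serpina3m in Serpina3k. The part of shared reads in the likeness of these pairs was not tested. Serpina3n was most like Ldha (0.88), Ldha-ps2 (0.84), whose reads may be those of Ldha, and Ggt6 (0.84).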

How the data were processed

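Messenger RNA of whole liver was sequenced. The authors deposited log2 CPM values with a prior count, in 2 tables, and per the submitters' processing notes used bcl2fastq, DRAGEN, STAR, Subread featureCounts and edgeR with GRCm38. Whole reads recovered from these values (100% whole within 0.1 read for genes of up to 200 reads) gave the depth per library, 10.2 to 54.0 M. Of 55774 rows, 287 repeated an ID and were dropped; 0 columns were left unused.

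Genes above 0 log2 CPM (1 CPM) in 5 or more (first table) or 6 or more (second table) libraries were tested, 13285 and 13388 in number, with limma 3.58.1 (lmFit, eBayes with trend) in R 4.3.3, two-sided, Benjamini-Hochberg over all genes tested, threshold 0.05, all libraries of a table in 1 fit. The procedure was tested on simulated data. WT PBS 2 was left out, and the members, gene lists, tests and this omission were chosen with earlier results of these data known. Fold changes are on the log2 scale with the prior count and understate low genes. 1 gene list is not reported here. Named genes are all members, Nfkb1, up to 3 genes per list past the threshold with the greatest change (otherwise the 1 with the greatest), and the 3 genes most correlated with each member (tested genes whose mean reached 2 log2 CPM in some group, predicted names left out); single libraries were singled out after their values were seen. Per-length levels use merged GENCODE M21 exons. Identities used Biopython. The motifs were chosen with these results known, and the shortened interferon motif after the longer had no match. Replicate numbers do not pair libraries. For 3 tunicamycin columns only the group is known. Alternatives covered WT PBS 2, pseudocount, filter, scaling, samples in the fit, moderation, voom on recovered reads, left-out libraries and the replicate block.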

Additional observations from a re-analysis of the deposited data

Results flagged for a closer look

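Of 42 pairs of a member and a group, 11 had a library whose gap to the nearest other was large for the range of its group; chance alone gives about 1 in 20. WT PBS 2 gave 7 of them, 1 for every member. It lay below the other WT PBS libraries for Serpina3c (2.898 log2 CPM against 7.197 to 7.839), Serpina3f (-0.9986 against 2.4 to 3.62), Serpina3k (9.622 against 13.36 to 13.97), Serpina3m (5.719 against 9.911 to 10.4) and Serpina3n (5.214 against 8.307 to 8.682). It lay above them for Serpina3g (2.266 against -2.025 to -1.187) and Serpina3i (3.568 against 0.6275 to 1.546).

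WT TNFa 4 was the lowest of its group for Serpina3g (0.2498 against 1.939 to 2.489) and Serpina3i (1.837 against 3.041 to 3.505). The unnumbered tunicamycin library a was the highest for Serpina3f (3.24 against 2.035 to 2.341), and WT DMSO 2 the lowest for Serpina3i (0.4007 against 1.468 to 2.057).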

How the results depend on the processing

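Of 881 values of single members under alternatives, 793 kept their direction and side of the threshold or were uncalled in both fits (16 of these changed sign), 57 lost a call, 28 gained one and 3 reversed. The reversed ones are Serpina3c (0.10), Serpina3k (0.066) and Serpina3m (0.18) in PiZ against WT with WT PBS 2. They changed sign and lost their call, and none was called in the other direction. With WT PBS 2 the genes called fell to 2336 (main 6886) in PiZ, 547 (1551) after TNFa, 468 (3313) in PiZ p50KO against PiZ, 12 (1550) against WT and 3406 (7416) in PiZ against TNFa, and members called to 2 (6), 2 (3), 0 (3), 0 (1) and 1 (3). An alternative chosen after seeing the data, WT PBS 2 included and libraries shifted to the same median, gave 1706, 1071, 368, 12 and 2483 genes and 2, 2, 0, 0 and 1 members. The cause was not tested. In PiZ p50KO against PiZ, members called were 1 with no filter, 5 with the median shift, 0 with only the groups compared (2180 genes) and 1 without libraries 1 and 2 (1479 genes). In PiZ p50KO against WT, genes called were 819 with no filter, 1000 with the median shift, 595 with quantile normalization, 225 with only the groups compared (0 members) and 2427 without libraries 1 and 2 (2 members). In PiZ against TNFa, members called were 6 with the median shift and 5 with quantile normalization. Leaving out 1 library gave 5947 to 7311 genes and 6 members in PiZ, 1165 to 2095 and 3 after TNFa, 2197 to 3770 and 1 to 4 in PiZ p50KO against PiZ, 703 to 2113 and 1 to 2 against WT, 6414 to 7605 and 2 to 5 in PiZ against TNFa, and 6799 to 8703 and 5 to 6 after tunicamycin. The replicate numbers do not pair libraries; the replicate block gave 6191, 1323, 2947, 795, 6956 and 6287 genes and 6, 3, 2, 1, 2 and 6 members in the order above.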
